A study of Mus musculus with 9 samples.

Results

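The fatty acid desaturase and elongase genes Fads1, Fads2, Fads3, Scd1, Scd2, Elovl1, Elovl5, Elovl6 and Elovl7 were followed across tumor cells of 3 mouse mammary carcinoma lines. Members were the genes for which the platform annotation names a probe, whatever the values: 8 of the 9 listed genes had one, of 12148 genes with a named probe in all, and they were read by 12 probes, each of which passed the filter on dim probes. Elovl7 had no named probe and was not analysed here.

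The lines of the 4T1 series come from the same spontaneous tumor and differ in how far they spread. 4T1 colonizes distant organs, 4T07 reaches the lung but hardly grows out there, and 67NR, the line the others were set against, stays at the primary site. Each line was read on 3 Illumina bead arrays. Untreated cells (500000 a tumor) were placed in the mammary fat pad of Ub-GFP hosts (female, Balb/c), in which a ubiquitin promoter drives GFP in the host's own cells, and were left for 2 to 4 weeks until tumors averaged 10 mm across. The cells profiled were those negative for both GFP and CD45. The labels name no engineered allele in the lines, and each line stands for 1 cell population rather than for a class of tumors. The labels do not say whether replicates came from separate mice, so the p-values measure only the spread between arrays, which may be technical.

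Desaturases place a double bond in the acyl chain of a fatty acid, drawing electrons from cytochrome b5 in the endoplasmic reticulum. Scd1 and Scd2 are stearoyl-CoA desaturases, which make monounsaturated from saturated fatty acids, whereas Fads2 and Fads1 act in turn, with an elongation step between them, to convert dietary linoleic and alpha-linolenic acid into arachidonic and eicosapentaenoic acid. The Elovl enzymes catalyze the first, rate-limiting reaction of chain elongation and differ in the chains they accept: Elovl6 extends saturated and monounsaturated chains such as palmitate, Elovl5 polyunsaturated ones, and Elovl1 very long saturated and monounsaturated ones.

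Promoter windows were read for 6 of the 9 listed genes (7 windows), Elovl7 among them. None was available for Fads1, Scd1 or Scd2. Those of Fads3, not detected in 67NR, and of Elovl5 and Elovl6, the elongases that were both highest in 4T07, are shown because these genes carry much of what follows. Each is the 250 bases before a start given in RefSeq (GRCm38.p6, a C57BL/6J genome, whereas the lines derive from Balb/c stock), 5′ to 3′ on the gene's own strand. The windows lie at chr19:10041298-10041547 for Fads3, chr9:77917115-77917364 for Elovl5 and chr3:129532136-129532385 for Elovl6, all on the plus strand. The Fads3 window lies inside the span of its gene, which begins at 10040855, whereas those of Elovl5 and Elovl6 end just before their genes. Capitals mark matches to a CCAAT box (CCAAT), a GC box (GGGCGG) or an E-box (CACGTG), searched on both strands, and no match shown overlaps another.
Fads3: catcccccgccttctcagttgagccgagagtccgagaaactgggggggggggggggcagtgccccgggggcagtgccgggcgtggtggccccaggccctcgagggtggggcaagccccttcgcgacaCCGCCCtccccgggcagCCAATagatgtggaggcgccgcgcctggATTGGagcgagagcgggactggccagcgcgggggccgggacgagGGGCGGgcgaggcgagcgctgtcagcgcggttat
Elovl5: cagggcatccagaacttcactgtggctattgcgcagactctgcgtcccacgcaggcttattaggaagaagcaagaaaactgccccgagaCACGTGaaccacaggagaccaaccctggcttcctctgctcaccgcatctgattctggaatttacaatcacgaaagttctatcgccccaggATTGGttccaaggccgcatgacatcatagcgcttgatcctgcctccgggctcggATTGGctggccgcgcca
Elovl6: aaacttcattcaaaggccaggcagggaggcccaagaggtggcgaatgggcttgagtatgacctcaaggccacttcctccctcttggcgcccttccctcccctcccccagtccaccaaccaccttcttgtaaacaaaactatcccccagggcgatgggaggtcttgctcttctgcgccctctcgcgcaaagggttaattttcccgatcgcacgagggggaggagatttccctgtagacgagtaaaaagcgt
The Fads3 window held a CCAAT box 106 bases before the start on the gene's strand and 1 on the other strand at 78 bases, with GC boxes at 123 and 34 bases. In the Elovl5 window there were CCAAT boxes on the other strand at 71 and 17 bases and an E-box at 161 bases. The Elovl6 window held none of the motifs searched. Of 32851 promoter windows of this length, 33.8% hold a CCAAT box, 32.7% a GC box and 6.02% an E-box. No window of the 6 genes matched the sterol regulatory element TCACNCCAC (1.05% of all windows) or the direct repeat bound by liver X receptors (0.0152%), which says only that these letters are not in these windows. Fads1, Scd1 and Scd2 were not searched. Elovl5 and Elovl6, which had a like pattern across the lines, shared no motif of those searched.

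Between 16025 and 17566 probes were detected on an array (detection p under 0.05), median intensities lay between 89.9 and 140, and arrays of a line correlated at 0.983 or higher. Defining markers of the adipocyte, a cell rich in Scd1, were close to background: of 10 listed, 5 had a named probe, none was detected on all arrays of any line, and Adipoq and Fabp4 were detected on no array. Epithelial markers differed strongly between the lines, with summed intensities over 9 genes of 33040 to 42221 on 4T1 arrays, 5435 to 8797 on 4T07 arrays and 904 to 1090 on 67NR arrays. For 13 fibroblast and pericyte markers the sums were 1896 to 2889 in 4T1, 3894 to 5339 in 4T07 and 3603 to 4431 in 67NR, and for 7 leukocyte markers 1046 to 1594 in 4T1, 1533 to 1785 in 4T07 and 1713 to 3962 in 67NR. Hba-a1, a hemoglobin gene, was detected in 67NR and in neither other line. In such bulk samples fewer cells of a type and less RNA per cell cannot be told apart, and the part of these marker differences in the results below was not tested.

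Of the 8 genes, 5 were higher and 1 lower in 4T1 than in 67NR, where 49.8% of all 10021 genes tested passed the threshold (limma, adjusted p under 0.05), 23.2% of all genes higher and 26.6% lower. In 4T07 against 67NR, 4 were higher and 1 lower, against 45.3% of all genes (21.9% higher and 23.4% lower). In 4T1 against 4T07, 2 were higher and 3 lower, against 29.8% of all genes (14% higher and 15.8% lower). With 8 genes and so many calls among all genes, these shares say little of the members as a group, and the members are described singly below. Median log2 fold changes over the members were 0.42, 0.75 and 0.16 in the same order, against -0.05, -0.05 and -0.01 over all genes, and were the same with undetected levels set at their bound. The groups of arrays did not overlap for 6, 7 and 6 of the members, against 58.7%, 53.4% and 44.9% of all genes. Levels below are normalized log2 intensities and differences are log2 fold changes, in log2 units, with the line named first over the other. The comparisons share arrays, so these counts are not independent of each other.

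**Figure D1:**
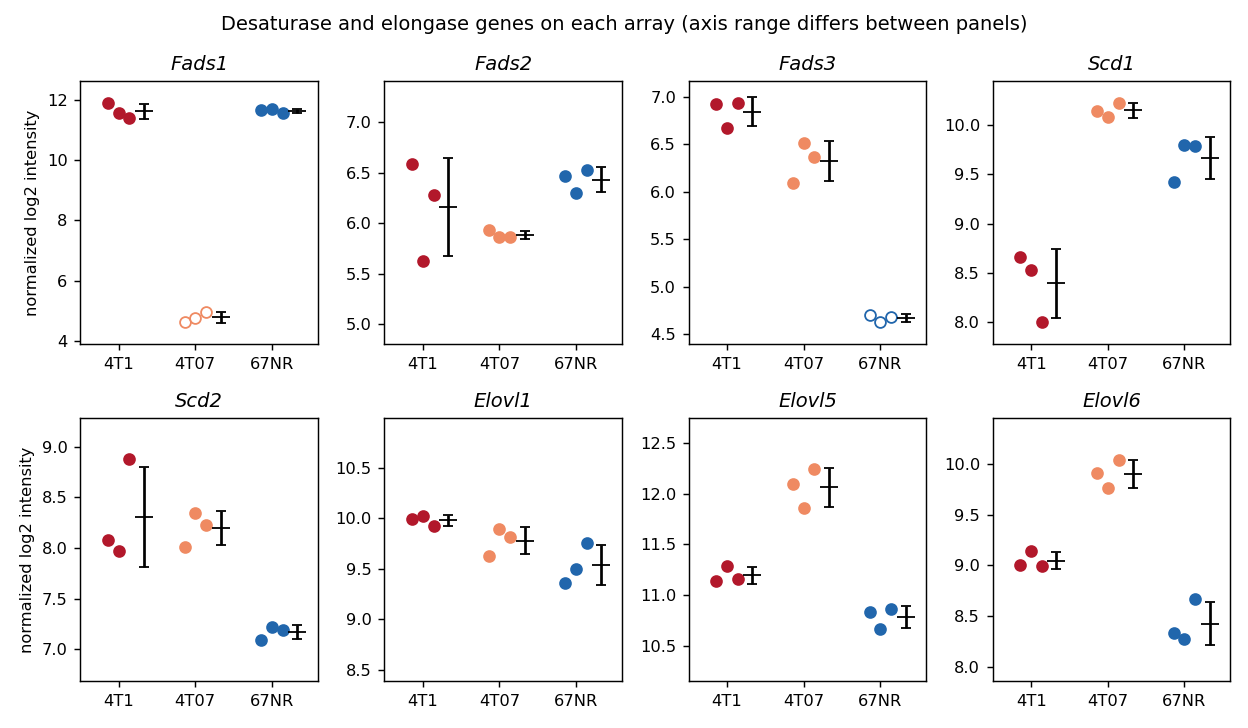
Normalized log2 intensity (y axis, range set for each gene) of the probe used for each gene on every array, grouped as 4T1, 4T07 and 67NR; open points were not detected, and the bar is the mean with its SD over 3 arrays. Fads1 is open on all 4T07 arrays and Fads3 on all 67NR arrays, while the 4T07 points lie on top for Elovl5, Elovl6 and Scd1.

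Fads1, the desaturase that forms arachidonic acid, had the widest difference of the group. Its normalized log2 intensities were 11.90, 11.55 and 11.41 on the 4T1 arrays, 4.62, 4.76 and 4.97 on the 4T07 arrays, and 11.65, 11.70 and 11.56 on the 67NR arrays. The 4T07 arrays lay far below all others and the 4T1 and 67NR arrays overlapped. Before normalization the probe read 2353 to 4005 in 4T1, 101 to 109 in 4T07 and 2792 to 4012 in 67NR, and its detection p was 0.078 to 0.452 on the 4T07 arrays, so that none detected it. A level not well above background is only a bound, and the bound holds only for the background correction used here. On that scale Fads1 was at least 93.4-fold lower in 4T07 than in 67NR (limma, adjusted p = 3.4e-11). It was at least 92.4-fold higher in 4T1 than in 4T07 (adjusted p = 1.28e-10). The authors' deposited log2 values give a smaller fold: 6.83, 6.90 and 6.97 in 4T07, 11.53, 11.58 and 11.44 in 67NR, and 11.78, 11.43 and 11.30 in 4T1. The Fads1 difference between 4T1 and 67NR was -0.02 on the log2 scale (95% interval -0.36 to 0.33, adjusted p = 0.94). Fads1 has 1 named probe, so its level rests on that probe alone: these bounds are of the probe's signal, and whether the sequence under the probe or the gene itself differs in 4T07 was not tested.

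Detection on every 4T1 and 67NR array and on no 4T07 array was uncommon: 35 of 10021 genes (0.349%) had this pattern. The gene nearest to Fads1 over the 9 arrays, each gene centred on its own mean, was Scarf2, a scavenger receptor family member, with a root mean square difference of 0.346 on the log2 scale. Scarf2 averaged 11.62 in 4T1, 4.64 in 4T07 and 11.67 in 67NR. Tmem185b (0.776) and Nectin3 (0.819) came next. These likenesses are descriptions of 9 arrays of 3 lines.

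Fads2, which catalyzes the first and rate-limiting desaturation of the same pathway, had no difference past the threshold in the fit of all 9 arrays, with 4T07 against 67NR lying at it. On its brighter probe it read 6.58, 5.63 and 6.27 in 4T1, 5.93, 5.86 and 5.86 in 4T07 and 6.47, 6.30 and 6.53 in 67NR. The 4T07 arrays all lay below the 67NR arrays, whereas the 4T1 arrays spanned both lines. The log2 fold change was -0.55 in 4T07 against 67NR (SE 0.21, limma, adjusted p = 0.0508), -0.27 in 4T1 against 67NR (adjusted p = 0.309) and 0.28 in 4T1 against 4T07 (95% interval -0.18 to 0.73, adjusted p = 0.358). The first of these sat at the threshold and passed it without 4T1 replicate 2 (adjusted p = 0.00941), whose value was the lowest of the 9, or without 4T1 replicate 1 (adjusted p = 0.0275). It passed also in a fit of these 2 lines alone (adjusted p = 0.00991), with the test the methods name (adjusted p = 0.0107) and with the stricter filter on dim probes (adjusted p = 0.0445). Without replicate 2, 4T1 against 4T07 passed as well, at 0.54 (adjusted p = 0.0313). A second Fads2 probe, detected on 7 of 9 arrays, gave -0.09, 0.01 and 0.10 for these comparisons, with none called. The genes nearest in profile to Fads2 were BC004004 (0.132), Fam110a (0.146) and Gtf2h5 (0.146).

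Fads3, a family member with activity on sphingoid bases, was the member not detected in 67NR, whereas Fads1 was not detected in 4T07. It read 6.93, 6.67 and 6.94 in 4T1, 6.09, 6.51 and 6.37 in 4T07, and 4.71, 4.63 and 4.68 in 67NR, where its detection p was 0.276 to 0.439. All 4T1 arrays lay above all 4T07 arrays, which lay above all 67NR arrays. Before normalization the probe read 177 to 252 in 4T1, 150 to 167 in 4T07 and 99.2 to 121 in 67NR. With the background correction used here, Fads3 was at least 3.25-fold higher in 4T1 than in 67NR (limma, adjusted p = 1.88e-07). It was at least 2.27-fold higher in 4T07 than in 67NR (adjusted p = 2.38e-06). The size depends on that correction. In 4T1 against 67NR the log2 fold change was 0.82 with the deposited values, 0.92 with no background correction and 1.14 with normexp. These are smaller folds than the bound, with the call kept in each. Detection on all 4T1 and 4T07 arrays and on no 67NR array was seen for 3.54% of genes (355 in all). The step between 4T1 and 4T07 was 0.52 log2 units (SE 0.15, adjusted p = 0.0198), a call that was lost without 4T07 replicate 1 (0.40, adjusted p = 0.0901), 4T1 replicate 1 (0.48, adjusted p = 0.0671) or 4T1 replicate 3 (0.47, adjusted p = 0.0649).

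**Figure D2:**
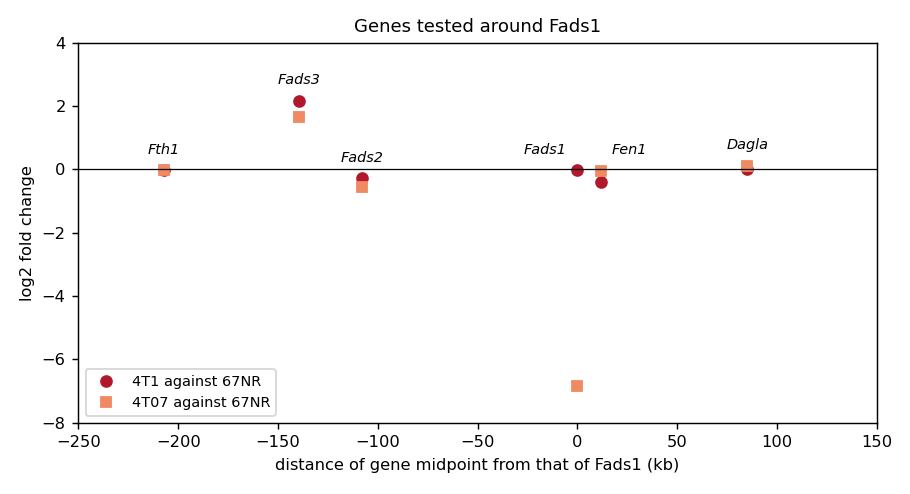
Log2 fold change (y axis) of the genes tested around Fads1 against the distance of their midpoint from that of Fads1 in kb (x axis), for 4T1 against 67NR (circles) and 4T07 against 67NR (squares). Only Fads1 is far below 0, in 4T07, and only Fads3 is clearly above 0, in both lines; the Fads1 value in 4T07 and both Fads3 values are fitted differences against a level not above background.

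The 3 Fads genes lie side by side on chromosome 19, in the order Fads3, Fads2, Fads1. In 4T07 against 67NR, with the background correction used here, Fads3 was at least 2.27-fold higher and Fads1 at least 93.4-fold lower. Fads2 had a log2 fold change of -0.55 that did not pass (limma, adjusted p = 0.0508). On the far side of Fads1, the flap endonuclease gene Fen1, 11.89 kb away between midpoints, had a fold change of -0.04 in 4T07 (limma, adjusted p = 0.867) and was detected on all 9 arrays. Dagla, a diacylglycerol lipase gene, was near background (0.12, adjusted p = 0.69). The ferritin heavy chain gene Fth1, beyond Fads3, had -0.03 (adjusted p = 0.851). These 3 genes and Incenp, the other gene tested from the neighborhood list, had adjusted p-values of 0.059 or higher in every comparison.

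Scd1, a stearoyl-CoA desaturase, was lowest in 4T1. It read 8.66, 8.53 and 8.002 in 4T1, 10.14, 10.08 and 10.22 in 4T07 and 9.43, 9.79 and 9.79 in 67NR. The lines did not overlap, with 4T07 on top. Scd1 was lower in 4T1 than in 67NR, with a log2 fold change of -1.27 (SE 0.18, limma, adjusted p = 0.000131) and lower in 4T1 than in 4T07, at -1.75 log2 units (SE 0.18, adjusted p = 2.83e-05). Its difference of 0.48 log2 units between 4T07 and 67NR lay at the threshold (95% interval 0.08 to 0.88, adjusted p = 0.0506). It passed with the authors' deposited log2 values (0.43, adjusted p = 0.0165), with other settings of background and filter, and without 4T1 replicate 1 (adjusted p = 0.0456) or replicate 3 (adjusted p = 0.0206). The summed intensities of the 5 adipocyte markers, none of them detected on all arrays of any line, were 428 to 666 on 4T1 arrays, 506 to 552 on 4T07 arrays and 509 to 626 on 67NR arrays, and their part in the Scd1 differences was not tested. The nearest profiles were those of Gstm5 (0.2), a glutathione transferase gene, Ggcx (0.235), the vitamin K-dependent carboxylase gene, and the homeobox gene Meis2 (0.244).

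Scd2, the paralog that in mice is prominent in brain and in early development, did not follow Scd1. It read 8.07, 7.97 and 8.88 in 4T1, 8.01, 8.35 and 8.23 in 4T07 and 7.09, 7.22 and 7.19 in 67NR. Every 4T1 and 4T07 array lay above every 67NR array, and the 4T1 and 4T07 arrays overlapped, with 4T1 replicate 3 highest. Scd2 was higher in 4T1 than in 67NR by 1.14 log2 units (SE 0.21, limma, adjusted p = 0.000979) and higher in 4T07 than in 67NR by 1.03 log2 units (SE 0.21, adjusted p = 0.00221). Between 4T1 and 4T07 the difference was 0.11 (95% interval -0.36 to 0.58, adjusted p = 0.741), and without 4T1 replicate 3 it turned to -0.17 (adjusted p = 0.464). In 4T1 against 67NR the paralogs thus moved in opposite directions, each past the threshold. Grap (0.16), Snn (0.165) and Zfp707 (0.17) were nearest to Scd2.

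**Figure D3:**
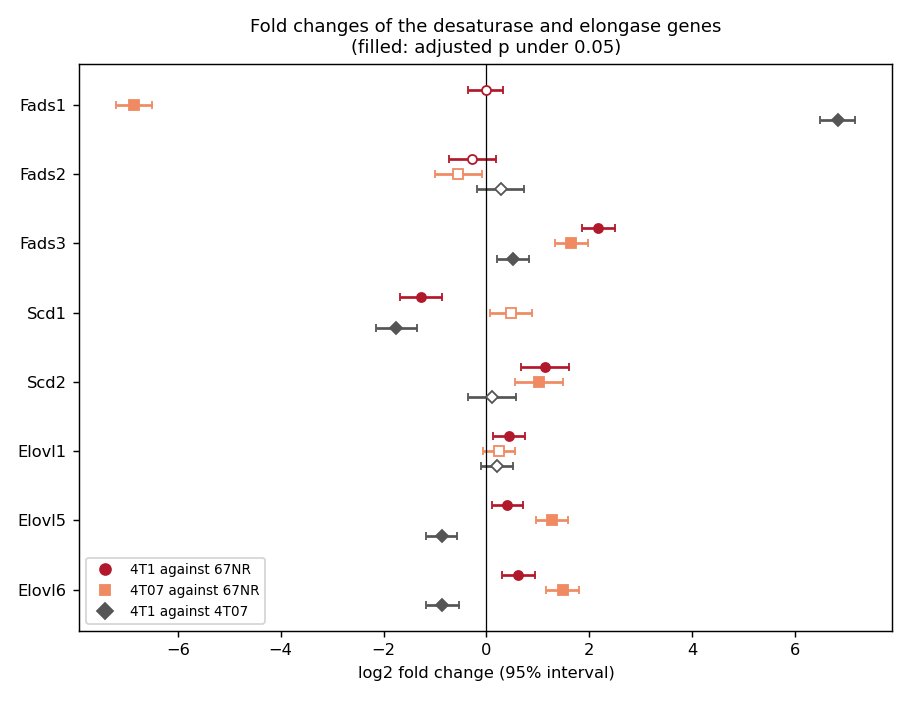
Log2 fold change (x axis) with its 95% interval for the 8 genes (circles, 4T1 against 67NR; squares, 4T07 against 67NR; diamonds, 4T1 against 4T07); filled points passed an adjusted p of 0.05. Fads1 stands far from the rest in both comparisons with 4T07; those 2 values and the Fads3 values against 67NR are fitted against an undetected level, for which the text gives bounds.

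Elovl5, the elongase that acts between the Fads2 and Fads1 steps, was highest in 4T07. It read 11.14, 11.29 and 11.16 in 4T1, 12.10, 11.86 and 12.24 in 4T07 and 10.83, 10.66 and 10.87 in 67NR. All 4T07 arrays lay above all 4T1 arrays, and these above all 67NR arrays. Elovl5 was higher in 4T07 than in 67NR by 1.28 log2 units (SE 0.14, limma, adjusted p = 1.58e-05) and lower in 4T1 than in 4T07, at -0.87 log2 units (SE 0.14, adjusted p = 0.000753). In 4T1 against 67NR it was higher by 0.41 log2 units (SE 0.14, adjusted p = 0.0304), and this smaller call was lost with median centring (0.48, adjusted p = 0.0511) and on leaving out any of 5 arrays (67NR replicate 1 or 2, or any 4T1 array), with an adjusted p of up to 0.105. In 4T07 a high Elovl5 signal thus stood beside no detected signal of the Fads1 probe, whose gene encodes the next enzyme of the pathway. The arrays read RNA, so whether that enzyme was present in the sorted 4T07 cells was not tested here. For cultured cells of that line, the paper reports increased levels of the enzyme by western blot. The absent probe signal is therefore not evidence that the line lacks the enzyme.

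Elovl6, which extends palmitate to stearate, had the same order of lines. It read 9.002, 9.14 and 8.99 in 4T1, 9.91, 9.77 and 10.04 in 4T07 and 8.33, 8.27 and 8.67 in 67NR. Again the lines did not overlap. Elovl6 was higher in 4T07 than in 67NR by 1.48 log2 units (SE 0.15, limma, adjusted p = 6.56e-06), higher in 4T1 than in 67NR by 0.62 log2 units (SE 0.15, adjusted p = 0.00415) and lower in 4T1 than in 4T07, at -0.86 log2 units (SE 0.15, adjusted p = 0.00109). In 4T1 against 67NR, Elovl6 was thus higher while Scd1, which desaturates the stearoyl-CoA that Elovl6 provides, was lower.

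Elovl1, needed for very long chain ceramides, differed little, and its 4 probes did not give the same picture. The brightest read 9.99, 10.02 and 9.92 in 4T1, 9.63, 9.89 and 9.81 in 4T07 and 9.36, 9.50 and 9.76 in 67NR. The 4T1 arrays lay above all others, while the 4T07 and 67NR arrays overlapped. On this probe Elovl1 was higher in 4T1 than in 67NR by 0.44 log2 units (SE 0.14, limma, adjusted p = 0.0228), with 0.24 in 4T07 against 67NR (adjusted p = 0.198) and 0.20 in 4T1 against 4T07 (adjusted p = 0.322). When every probe of the array was fitted by itself, 46% of 15686 probes passed in 4T1 against 67NR, 41.6% in 4T07 against 67NR and 26% in 4T1 against 4T07. In that fit ILMN_2723491 was called together with the brightest probe in 4T1 against 67NR (0.54, adjusted p = 0.0319) and alone in 4T07 against 67NR (0.50, adjusted p = 0.048), whereas ILMN_1224780 gave 0.05 (adjusted p = 0.864) and ILMN_2771824 gave -0.18 (adjusted p = 0.386). The mean over the 4 probes was 0.21 (adjusted p = 0.24), and the call was lost without 67NR replicate 1 or 2 or without 4T1 replicate 1 or 2 (adjusted p of 0.0579 to 0.0844). Whether Elovl1 is called between 4T1 and 67NR therefore depends on the probe, and the probes called were both higher in 4T1.

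**Figure D4:**
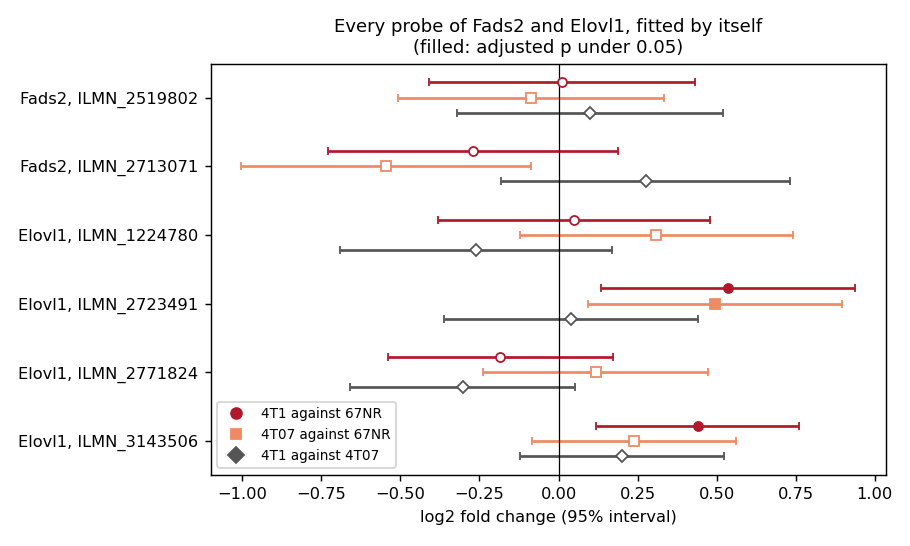
Log2 fold change (x axis) with its 95% interval for each probe of Fads2 and Elovl1 fitted by itself (circles, 4T1 against 67NR; squares, 4T07 against 67NR; diamonds, 4T1 against 4T07); filled points passed an adjusted p of 0.05. Of the Elovl1 probes, ILMN_2723491 and ILMN_3143506 passed in 4T1 against 67NR and the other pair lay at 0.05 and -0.18.

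Of 8 other desaturase and elongase genes, 2 were tested. Degs1, the desaturase that completes ceramide, was higher in 4T1, by 0.59 log2 units against 67NR (limma, adjusted p = 0.0035) and by 0.74 log2 units against 4T07 (adjusted p = 0.00161). In 4T07 against 67NR it gave -0.16 (adjusted p = 0.369). Elovl4, which makes the longest chains, was detected on 4T1 arrays alone, at least 1.22-fold above 67NR. It passed the filter on dim probes only through those arrays, so its higher level there was largely set by the filter.

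The enzymes that complete each elongation round are 3-ketoacyl-CoA reductase, the Hacd dehydratases and the reductase Tecr. Of 6 tested, 2 were higher in 4T1 than in 67NR and 1 in 4T07 than in 67NR, with 0 lower in either, and in 4T1 against 4T07 1 was higher and 1 lower. The list's median log2 fold change was 0.13, 0.20 and -0.04 in these comparisons, against -0.05, -0.05 and -0.01 over all genes here and for the lists below. All genes gave 23.2%, 21.9% and 14% higher and 26.6%, 23.4% and 15.8% lower. With lists this short, counts say little against these shares. Hacd3 was higher in 4T1 by 0.78 log2 units (limma, adjusted p = 0.000819) and Tecr by 0.58 log2 units (adjusted p = 0.00253). Hacd4 was higher in 4T07 than in 67NR by 0.90 log2 units (adjusted p = 0.000154) and lower in 4T1 than in 4T07, at -0.81 log2 units (adjusted p = 0.000809). It was thus highest in 4T07, as Elovl5 and Elovl6 were. Unlike them, Hacd4 had no call in 4T1 against 67NR (0.10, adjusted p = 0.575), where the arrays overlapped.

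Of 5 tested genes for the electron supply, 2 were lower in 4T1 than in 67NR, 1 in 4T07 than in 67NR and 1 in 4T1 than in 4T07, with 0 higher (medians -0.30, -0.23 and -0.07). Over all genes 26.6%, 23.4% and 15.8% were lower in these comparisons. Cyb5a, the cytochrome b5 that hands electrons to the desaturases, averaged 10.13 in 4T1, 11.31 in 4T07 and 11.36 in 67NR. It was lower in 4T1 at -1.22 log2 units against 67NR (limma, adjusted p = 4.29e-05) and at -1.18 log2 units against 4T07 (adjusted p = 0.000167), as Scd1 was. Cyb5r3, the reductase that recharges it, was lower at -1.37 log2 units in 4T1 (adjusted p = 1.15e-05) and at -1.26 log2 units in 4T07 (adjusted p = 2.43e-05), each against 67NR.

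**Figure D5:**
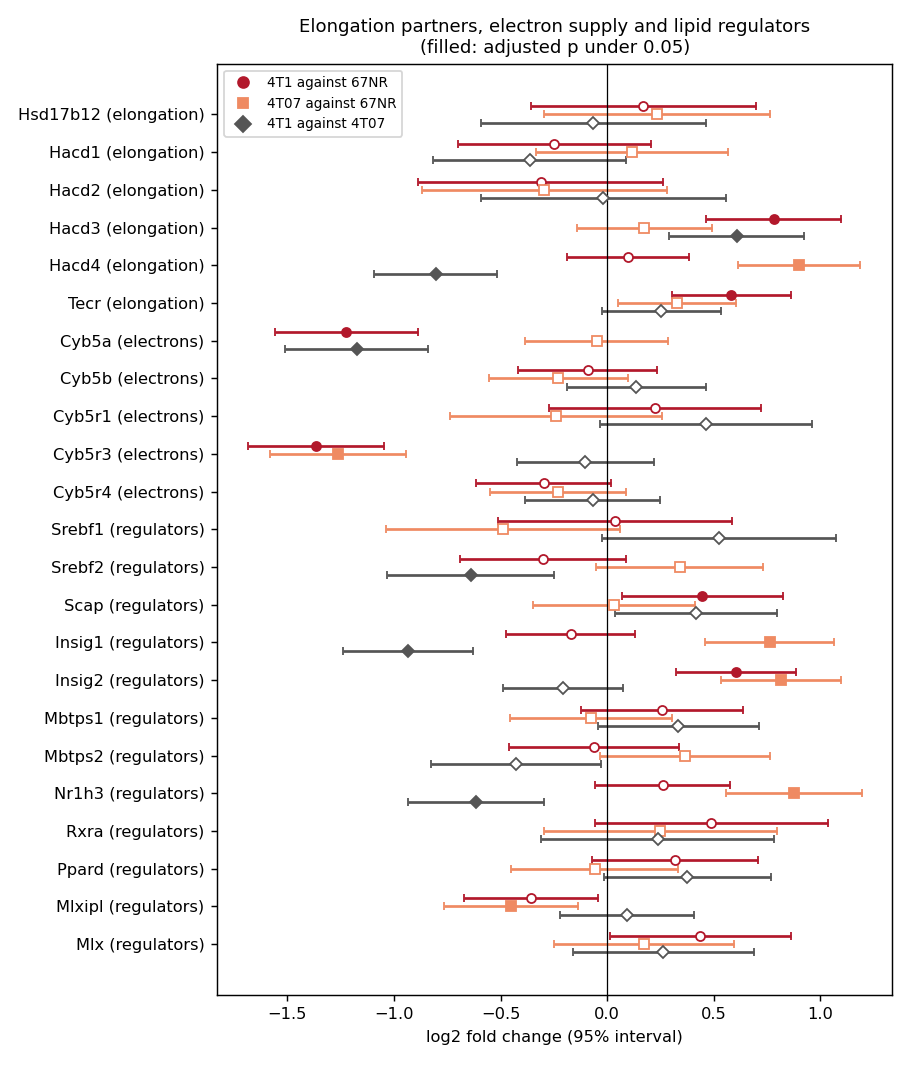
Log2 fold change (x axis) with its 95% interval for genes of the elongation round, of the electron supply and of the SREBP and LXR regulators (circles, 4T1 against 67NR; squares, 4T07 against 67NR; diamonds, 4T1 against 4T07); filled points passed an adjusted p of 0.05. Cyb5a and Cyb5r3 lie left of 0 against 67NR in 4T1, and Hacd4, Insig1 and Nr1h3 are right of 0 in 4T07; Nr1h3 was not detected on 4T1 or 67NR arrays.

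SREBP and LXR are the transcription factors best known for control of desaturase and elongase genes. Of 12 regulators tested, 2 were higher and 0 lower in 4T1 than in 67NR, 3 higher and 1 lower in 4T07 than in 67NR, and 0 higher and 3 lower in 4T1 than in 4T07. Medians were 0.26 (0.19 with undetected levels at their bound), 0.21 and 0.17. The shares over all genes were 23.2%, 21.9% and 14% higher and 26.6%, 23.4% and 15.8% lower. Insig1, itself an SREBP target, was higher in 4T07 than in 67NR by 0.76 log2 units (limma, adjusted p = 0.000821) and lower in 4T1 than in 4T07, at -0.93 log2 units (adjusted p = 0.000422). Insig2 was higher by 0.61 log2 units in 4T1 (adjusted p = 0.00212) and by 0.81 log2 units in 4T07 (adjusted p = 0.00029), each against 67NR. Srebf2 was lower in 4T1 than in 4T07, at -0.64 log2 units (adjusted p = 0.019). Nr1h3, which encodes LXR alpha, was detected on 4T07 arrays alone, at least 1.24-fold above 67NR. It passed the filter on dim probes only through those arrays, so its higher level there was largely set by the filter. Nr1h3 is still among the 3 regulators counted as higher in 4T07 than in 67NR. Scap was higher in 4T1 than in 67NR by 0.45 log2 units, just past the threshold, and Mlxipl was lower in 4T07 than in 67NR, at -0.45 log2 units (adjusted p = 0.024). Srebf1, named for its role after its values were seen, gave 0.04 in 4T1 against 67NR (adjusted p = 0.918) and -0.49 in 4T07 against 67NR (adjusted p = 0.136).

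Of 13 cholesterol synthesis and uptake genes tested, the other set under SREBP control, 7 were higher and 2 lower in 4T1 than in 67NR (median 0.56), 9 higher and 1 lower in 4T07 than in 67NR (median 0.81), and 1 higher and 5 lower in 4T1 than in 4T07 (median -0.14). Over all genes the shares were 23.2%, 21.9% and 14% higher and 26.6%, 23.4% and 15.8% lower. Cyp51, lanosterol demethylase, was higher by 1.01 log2 units in 4T1 (limma, adjusted p = 0.000931) and by 1.67 log2 units in 4T07 (adjusted p = 2.06e-05), each against 67NR, and lower in 4T1 than in 4T07, at -0.66 log2 units (adjusted p = 0.0213). Sqle, squalene epoxidase, was higher in 4T07 than in 67NR by 0.81 log2 units (adjusted p = 0.00124), with 0.05 in 4T1 (adjusted p = 0.811). Dhcr7, the last enzyme of the route, was lower at -1.55 log2 units in 4T1 (adjusted p = 0.0012) and at -2.16 log2 units in 4T07 (adjusted p = 0.000114), each against 67NR. Dhcr7 was the only gene of the list lower in both lines. Ebp, a sterol isomerase, differed between 4T1 and 4T07 in the direction opposite to Cyp51: it was higher by 1.85 log2 units in 4T1 (adjusted p = 9.42e-06) and by 0.69 log2 units in 4T07 (adjusted p = 0.012), each against 67NR, and higher in 4T1 than in 4T07 by 1.15 log2 units (adjusted p = 0.000957). Pmvk, phosphomevalonate kinase, was higher by 1.20 log2 units in 4T1 and by 1.31 log2 units in 4T07, and Nsdhl, a sterol dehydrogenase, by 1.09 log2 units in 4T1 and 0.98 log2 units in 4T07, each against 67NR with an adjusted p of 0.00164 or lower. Fdps, farnesyl diphosphate synthase, was higher by 0.56 log2 units in 4T1 (adjusted p = 0.0139) and by 1.19 log2 units in 4T07 (adjusted p = 9.39e-05), again against 67NR. The sterol carrier gene Stard4 was higher in 4T07 than in 67NR by 0.85 log2 units (adjusted p = 0.00179) and lower in 4T1 than in 4T07, at -0.78 log2 units (adjusted p = 0.00584).

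Fatty acid synthesis supplies the substrate. Of 8 genes tested, 2 were higher and 1 lower in 4T1 than in 67NR, 2 higher and 1 lower in 4T07 than in 67NR, and 1 higher and 1 lower in 4T1 than in 4T07. The medians of 0.06 (0.0098 with undetected levels at their bound), 0.06 and 0.175 were near 0. Among all genes, 23.2%, 21.9% and 14% were higher and 26.6%, 23.4% and 15.8% lower. The mitochondrial citrate carrier Slc25a1 was higher by 3.65 log2 units in 4T1 (limma, adjusted p = 9.43e-10) and by 3.99 log2 units in 4T07 (adjusted p = 5.17e-10), each against 67NR. Acss2, which makes acetyl-CoA from acetate, was lower at -0.42 log2 units in 4T1 (adjusted p = 0.038) and higher by 0.46 log2 units in 4T07 (adjusted p = 0.0268), each against 67NR, and lower in 4T1 than in 4T07, at -0.87 log2 units (adjusted p = 0.00116), the order of lines of Scd1. Acly, ATP citrate lyase, was higher in 4T1 than in 67NR by 0.53 log2 units (adjusted p = 0.0114), Me1, malic enzyme, was lower in 4T07 than in 67NR, at -0.80 log2 units (adjusted p = 0.0408), and Acacb, not detected in 4T07, was at least 1.64-fold higher in 4T1 than there (adjusted p = 0.0258).

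Acyl-CoA synthetases and lysophospholipid acyltransferases place the products in membranes. Of 10 tested, 8 were higher in 4T1 than in 67NR and 6 in 4T07 than in 67NR, with 0 lower, and 3 were higher and 1 lower in 4T1 than in 4T07. Medians were 1.02 in 4T1 and 0.81 in 4T07 against 67NR (0.89 and 0.73 with undetected levels at their bound), and 0.28 in 4T1 against 4T07. All genes gave 23.2%, 21.9% and 14% higher and 26.6%, 23.4% and 15.8% lower. Lpcat3, which puts arachidonate into phospholipids, was higher by 1.36 log2 units in 4T1 (limma, adjusted p = 1.32e-05) and by 1.62 log2 units in 4T07 (adjusted p = 3.03e-06), each against 67NR. Acsl3 was higher by 0.97 log2 units in 4T1 (adjusted p = 0.00352) and by 1.75 log2 units in 4T07 (adjusted p = 5.34e-05). Mboat1 was at least 24.3-fold higher in 4T1 (adjusted p = 2.66e-10) and at least 6.58-fold higher in 4T07 (adjusted p = 1.6e-08) than in 67NR, where it was not detected. Acsl4, which activates arachidonate, was higher by 1.74 log2 units in 4T1 (adjusted p = 5.45e-05) and by 1.98 log2 units in 4T07 (adjusted p = 2.01e-05), each against 67NR. Acsl6 was detected on 4T1 arrays alone, at least 15.4-fold higher than in 67NR, and passed the filter on dim probes only through those arrays. Its direction was thus set by the filter, though it is among the 8 genes counted as higher in 4T1 than in 67NR. Acsl5 was higher in 4T1 by 0.81 log2 units (adjusted p = 0.000544), with 0.23 in 4T07 (adjusted p = 0.211), both against 67NR.

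Of 7 tested genes of arachidonate release and oxygenation, 0 were higher and 2 lower in 4T1 than in 67NR, 1 higher and 2 lower in 4T07 than in 67NR, and 0 higher and 1 lower in 4T1 than in 4T07 (medians -0.18, -0.12 and -0.18). Here and for the peroxisomal genes below, all genes gave 23.2%, 21.9% and 14% higher and 26.6%, 23.4% and 15.8% lower. Alox5ap, the 5-lipoxygenase activating protein, was at least 113-fold lower in 4T1 and at least 110.2-fold lower in 4T07 than in 67NR. It was detected on 67NR arrays alone and passed the filter on dim probes only through them, so its direction was set by the filter. Alox5ap is still among the 2 genes counted as lower in each line against 67NR. Alox5ap is also abundant in leukocytes, which the sort for CD45-negative cells was to remove. Leukocyte marker sums reached their highest values on 67NR arrays (1713 to 3962). There S100a8 varied most (9.26 ± 1.57, SD, n = 3) and Cd3e and Adgre1 were detected on no array. Among 5 leukocyte markers tested, 4 were lower in 4T1 and 2 in 4T07, each against 67NR, with 0 higher. The shares over all genes were 26.6% and 23.4% lower. Lyz2 was lower at -2.48 log2 units in 4T1 (limma, adjusted p = 6.59e-05) and at -2.57 log2 units in 4T07 (adjusted p = 5.34e-05), each against 67NR. The part of leukocytes in the Alox5ap difference was not tested. Ptges2 was lower at -0.88 log2 units in 4T1 (adjusted p = 0.000179) and at -0.66 log2 units in 4T07 (adjusted p = 0.0015), each against 67NR. Ptges, a prostaglandin E synthase, was higher in 4T07 than in 67NR by 1.47 log2 units (adjusted p = 2.41e-05) and lower in 4T1 than in 4T07, at -1.84 log2 units (adjusted p = 1.05e-05). Of 4 tested genes of the peroxisomal step of docosahexaenoate synthesis, 1 rose and 2 fell in 4T1 against 67NR, and 1 rose and 0 fell in 4T07 against 67NR (medians -0.11 and -0.13), with Acaa1a higher by 1.05 log2 units in 4T1 (adjusted p = 0.000266) and by 0.81 log2 units in 4T07 (adjusted p = 0.00183). The peroxisomal genes lower in 4T1 than in 67NR were Abcd3, at -0.74 log2 units (adjusted p = 0.00129), and Hsd17b4, at -0.51 log2 units (adjusted p = 0.0295).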

How the data were processed

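For each of 9 arrays (3 a line), the authors deposited non-normalized probe intensities on a linear scale with detection p-values for 45281 probes, and a table of quantile-normalized log2 values for 22834 of them. The deposited detection p-value compares a probe with negative controls on that array. That the log2 table is quantile-normalized was read from its values, since its 9 columns hold the same set. The sources used here state neither the software, the background correction and the choice of probes nor the slides.

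Intensities were corrected with neqc (limma 3.58.1, R 4.3.3, offset 16) and quantile-normalized. A named probe was kept if at least 3 arrays gave a detection p under 0.05 (15686), and the brightest of each gene was used (10021 genes). lmFit and eBayes were run on all arrays, two-sided, with Benjamini-Hochberg adjustment over all genes and a threshold of 0.05. A fold against a line in which no array detected the probe is a lower bound on the neqc scale only. That line's mean took, per array, the higher of the probe's own value and the lowest value among detected probes. Other settings of background, and the deposited log2 values, can give a smaller fold. The fit was checked on simulated data. The number of arrays limits the precision.

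Members, lists and tests were chosen with earlier results of these data known. All members and all their probes are named, for each pathway list and comparison up to 4 called genes with the largest change, and the 3 nearest profiles of Fads1, Fads2, Scd1 and Scd2. Srebf1 and the neighbors of Fads1 were named outside this rule, after their values were seen. Markers are given mainly as sums, with some named singly. Alternatives were the deposited log2 values, no background correction, normexp (offset 50), median centring, no filter or a stricter one, all kept probes, a replicate block, a fit of the compared lines alone, the test the methods name, a 2-fold minimum, and each array left out. Promoters come from RefSeq (GRCm38.p6).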

Additional observations from a re-analysis of the deposited data

How the results depend on the processing

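Among the log2 fold changes of the members, alternatives other than leaving out an array kept direction and side of the threshold in 247 cases. They lost the call in 11, gained it in 12 and turned the sign in 6. Leaving out 1 array gave 195, 12, 5 and 4 such cases. With a 2-fold minimum the genes called were 2197 in 4T1 against 67NR, 1957 in 4T07 against 67NR and 1000 in 4T1 against 4T07, and the members called were 3 in 4T1 against 67NR and 2 in 4T1 against 4T07. The test the methods name called 1835 genes in 4T1 against 4T07, against 2985. Without 1 array, genes called ranged over 4409 to 5171, 3897 to 4520 and 2217 to 3036 in the same order of comparisons, and members called over 4 to 6, 5 to 7 and 4 to 6.

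Signs turned only in differences near 0 or between probes. Fads1 in 4T1 against 67NR was 0.039 with median centring and -0.16 to 0.087 without 1 array. The second Fads2 probe gave 0.012 there. Elovl1 gave -0.18 (ILMN_2771824) in 4T1 against 67NR, and -0.081 (mean of probes), -0.26 (ILMN_1224780) and -0.30 (ILMN_2771824) in 4T1 against 4T07. Scd2 in 4T1 against 4T07 was -0.17 to 0.28 without 1 array. The cause was not tested.

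Arrays of the same replicate number did not deviate together (r of -0.169 to 0.153), so numbers were not taken as pairs. With the replicate number as a block, 4938, 4466 and 2855 genes were called, and of the members only Fads2 changed its call, in 4T07 against 67NR (adjusted p = 0.0365). For the dim probes, Fads2 among them, signal over background limits what can be seen.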
